A study of Homo sapiens with 9 samples.

Results

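The SLC2A genes encode the facilitative sugar carriers (GLUT proteins). Most let hexoses cross a membrane down their gradient, and SLC2A13 encodes a proton-coupled inositol carrier. The rows of the deposited gene counts table that carried the symbols SLC2A1, SLC2A3, SLC2A4, SLC2A5, SLC2A6, SLC2A8, SLC2A10, SLC2A11, SLC2A12 and SLC2A13 were taken, 10 of 28216 genes, and their levels and their shares in the family total were compared across 3 groups of libraries. RNA was sequenced from PC3 and LNCaP cells, which are both established lines of prostate cancer (PCa) metastases and differ in androgen response. PC3 cells were untreated. LNCaP cells (clone FCG) were kept for 24 h in phenol-red-free medium with charcoal-stripped serum, and then for 48 h with 10 nM DHT or with vehicle (0.01% ethanol). All groups carry the wild-type genotype in the labels, and each has 3 libraries. The labels name the androgen as DHT, whereas the main text of the study names R1881. Each line is a single established line, PC3 and LNCaP cells were grown in different media, and no group holds LNCaP cells in complete medium, so line and medium cannot be told apart. The labels do not say that the replicates came from separate cultures, so p-values measure the spread between these libraries, which may be technical.

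The family falls into 3 classes by sequence. Class I holds GLUT1 (SLC2A1), the carrier of basal glucose uptake in most cells, GLUT3 (SLC2A3), a high-affinity carrier known from neurons, and GLUT4 (SLC2A4), which insulin brings to the surface of muscle and fat cells. Class II is represented by the fructose carrier GLUT5 (SLC2A5) and by GLUT11 (SLC2A11). Class III is represented by GLUT6 (SLC2A6) and GLUT8 (SLC2A8), which reside largely inside the cell, by GLUT10 (SLC2A10) and GLUT12 (SLC2A12), and by the proton-coupled inositol carrier HMIT (SLC2A13). LNCaP cells carry an active androgen receptor, and PC3 cells are known for its absence.

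Counts on genes ranged from 17.4 to 25.6 M per library, and a count of 0 allows up to 0.118 to 0.160 CPM (counts scaled to library size with TMM factors), by counting error only. The labels of the lines were checked against markers. All 7 luminal and androgen response genes were lower in PC3 cells than in either LNCaP group, with KLK2 at 0 counts in all 3 PC3 libraries, and all 3 mesenchymal-type genes (VIM, CAV1 and CD44) were higher. Of 12 markers of blood, endothelium, fibroblast, muscle and fat cells, only COL1A1 and VWF passed the filter on low counts, and both moved with the groups. VWF had 0.0564 ± 0.0290 CPM in PC3, 7.51 ± 0.583 in DHT-treated and 16.7 ± 1.01 in vehicle-treated cells, and COL1A1 had 38.5 ± 4.74, 13.4 ± 1.55 and 21.8 ± 1.39 CPM in the same order. PECAM1, below the filter, had 47 to 85 counts in PC3 libraries and at most 1 in any LNCaP library. Of 5 epithelial markers, EPCAM, CDH1, KRT8 and KRT18 were lower in PC3 than in DHT-treated cells and KRT19 was higher (441 ± 32.5 and 15.5 ± 2.50 CPM). The part of these differences in the results was not tested. PC3 replicate 3 stood apart from the other PC3 libraries (chi-square per degree of freedom of 31.6 and 54.5 against replicates 1 and 2, and 11.6 between these). The SLC2A1 comparisons, and those of SLC2A6 and SLC2A10 with DHT-treated cells, are also given without it. In RNA from whole cultures, fewer cells with a transcript and less transcript per cell cannot be told apart.

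The members lie on 7 chromosomes (GENCODE 44, GRCh38). SLC2A1 spans chr1:42925353-42958893, SLC2A5 chr1:9035106-9088478, SLC2A6 chr9:133471094-133479127, SLC2A12 chr6:133987581-134052624, SLC2A3 chr12:7919230-8019007 and SLC2A13 chr12:39755025-40106089, all on the minus strand. SLC2A4 spans chr17:7281718-7288257, SLC2A8 chr9:127397138-127408424, SLC2A10 chr20:46709649-46736347 and SLC2A11 chr22:23856703-23886312, all on the plus strand. SLC2A10 and SLC2A12 have 5 exons each in their canonical transcripts, and the other 8 members have 10 to 12. The encoded proteins range from 477 amino acids for SLC2A8 to 648 for SLC2A13.

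The bases just before the transcription start were read for 8 members from RefSeq (GRCh38.p14), and 3 are shown. SLC2A1 and SLC2A12 were the members with the largest increases in level per length in DHT-treated cells, and SLC2A10 had its highest level in PC3 cells. Each line gives the 250 bases before the start, 5′ to 3′ on the strand of the gene, at chr1:42958869-42959118 (minus), chr6:134052625-134052874 (minus) and chr20:46709399-46709648 (plus). Capitals mark the letters TATAAA in SLC2A1 and ACGTG in SLC2A10.
SLC2A1: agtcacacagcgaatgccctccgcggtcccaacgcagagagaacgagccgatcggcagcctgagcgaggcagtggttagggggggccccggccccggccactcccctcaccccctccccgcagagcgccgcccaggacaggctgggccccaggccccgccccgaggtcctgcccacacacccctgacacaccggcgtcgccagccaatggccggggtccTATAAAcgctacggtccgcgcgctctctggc
SLC2A12: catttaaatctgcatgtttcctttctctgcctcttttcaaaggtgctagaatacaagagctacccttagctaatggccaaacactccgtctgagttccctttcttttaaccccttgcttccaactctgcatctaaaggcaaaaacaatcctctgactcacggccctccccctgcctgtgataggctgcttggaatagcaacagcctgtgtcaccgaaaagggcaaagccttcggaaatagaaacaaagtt
SLC2A10: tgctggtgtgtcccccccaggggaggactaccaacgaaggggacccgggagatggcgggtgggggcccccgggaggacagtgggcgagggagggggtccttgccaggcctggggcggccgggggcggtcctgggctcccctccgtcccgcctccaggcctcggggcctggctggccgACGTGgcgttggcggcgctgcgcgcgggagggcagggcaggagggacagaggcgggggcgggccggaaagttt
These 3 starts differ in base composition. GC bases made up 72.4% of the SLC2A1 stretch, 76.8% of the SLC2A10 stretch and 46.0% of the SLC2A12 stretch, beside a median of 58.0% over 35116 RefSeq windows, and CpG pairs numbered 24, 22 and 4. Both strands were searched for 5 motifs. TATAAA, the letters of a TATA box, lay in the SLC2A1 and SLC2A5 stretches, 31 and 29 bases before the start, and in 10.7% of all windows. ACGTG, 1 form of the hypoxia response core, lay in the SLC2A10 and SLC2A13 stretches and in 18.5% of all windows (other forms not searched). In SLC2A13 it overlaps the E-box CACGTG, found in 6.34% of all windows. The short androgen receptor motif AGAACA lay in 1 member, SLC2A8, 249 bases before the start, and in 12.4% of all windows. Its palindrome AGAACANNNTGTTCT lay in no member stretch and in 1 of the 35116 windows. The windows of SLC2A3 and SLC2A4 were not analysed here.

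Levels per length were compared first, as CPM per kb of the canonical transcript. The family total was 32.7 ± 2.51 in PC3 cells, 77.8 ± 2.06 in DHT-treated LNCaP cells and 43.2 ± 0.622 in vehicle-treated LNCaP cells (mean ± SD, n = 3). The PC3 total was 0.420 times that of DHT-treated cells, and the DHT-treated total was 1.80 times that of vehicle-treated cells. No 2 groups overlapped in any library, and each exact two-sided permutation test of the difference gave p = 0.1, the smallest that 3 against 3 libraries allow. The total of DHT-treated cells exceeded that of vehicle-treated cells by 34.6 CPM per kb. SLC2A1 made up 36.4% of that difference, SLC2A12 29.1%, SLC2A3 10.49% and SLC2A4 9.78%. Between PC3 and DHT-treated LNCaP cells, SLC2A1 and SLC2A12 again made up most of the difference, with 31.4% and 29.9%, although these comparisons share the DHT-treated libraries. The order of these 2 genes depended on the length used. In CPM with no length, SLC2A12 differed more than SLC2A1 in both comparisons. SLC2A12 had 80.1 CPM in DHT-treated, 24.0 in vehicle-treated and 4.87 in PC3 cells, and SLC2A1 had 95.0, 52.3 and 46.9. The difference of PC3 minus vehicle-treated cells was -10.6 CPM per kb, to which SLC2A12 gave -3.44 and SLC2A10 gave 2.77.

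**Figure D1:**
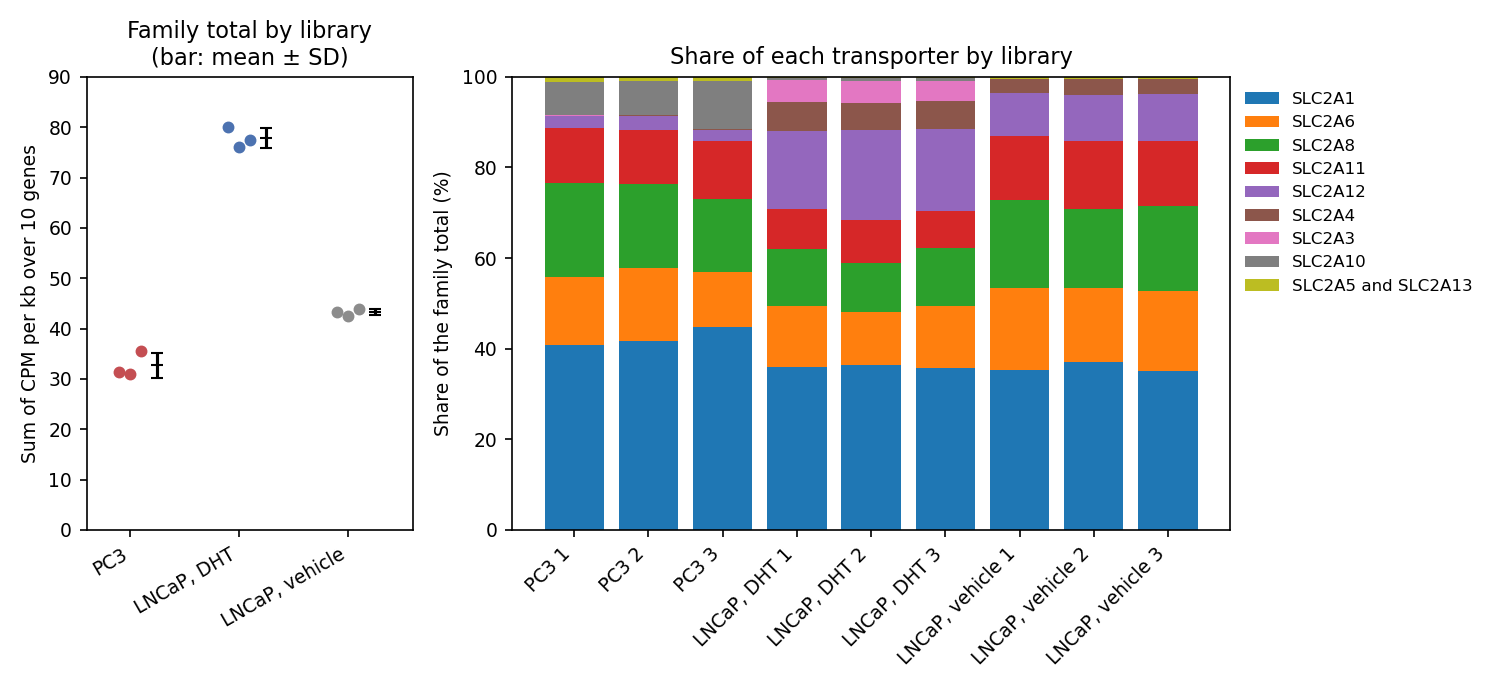
Left, sum of CPM per kb over the 10 SLC2A genes in each library (points) with mean ± SD (bars, n = 3). Right, share (%) of each gene in that sum, one stacked column per library. The DHT-treated libraries lie highest (76.0 to 80.0), SLC2A1 is the largest block in every column, and SLC2A12 widens from 2.50 to 2.99% in PC3 cells to 17.4 to 19.97% in DHT-treated LNCaP cells.

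SLC2A1 held the largest share per canonical length in every library. Its share was 42.4 ± 2.12% in PC3 cells, 36.1 ± 0.350% in DHT-treated and 35.8 ± 1.05% in vehicle-treated LNCaP cells. Behind it, the order differed between groups. In PC3 cells SLC2A8 (18.5 ± 2.39%), SLC2A6 (14.4 ± 2.07%) and SLC2A11 (12.3 ± 0.510%) followed, and neighbours among these 3 overlapped in their libraries. SLC2A10 came next with 8.41 ± 1.86%, and the rest held at most 2.68 ± 0.269% each. In DHT-treated LNCaP cells SLC2A12 was second with 18.5 ± 1.33%, followed by SLC2A6 (12.8 ± 1.10%) and SLC2A8 (12.2 ± 1.15%), which overlapped, and by SLC2A11 (8.78 ± 0.677%), SLC2A4 (6.15 ± 0.246%) and SLC2A3 (4.67 ± 0.176%), which did not. In vehicle-treated cells SLC2A8 (18.6 ± 1.07%) and SLC2A6 (17.4 ± 0.842%) overlapped, and SLC2A11 (14.5 ± 0.465%), SLC2A12 (9.98 ± 0.427%) and SLC2A4 (3.26 ± 0.247%) came below them without overlap. This order depended on the length used. Over all annotated exons, SLC2A1 and SLC2A12 held 28.8% and 28.9% in DHT-treated cells, while SLC2A1 stayed first with 37.9% in PC3 and 31.1% in vehicle-treated cells. On that scale SLC2A12 (17.0%) passed SLC2A11 (8.53%) in vehicle-treated cells. SLC2A10 (12.8%) passed SLC2A11 (7.48%) in PC3 cells, and SLC2A4 (8.12%) passed it (4.76%) in DHT-treated cells.

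A share can fall while a level does not. SLC2A8 had 17.3 ± 1.18 CPM in vehicle-treated and 20.3 ± 2.31 CPM in DHT-treated cells, yet its share was 18.6% and 12.2%. The shares of SLC2A6 and SLC2A11 were likewise smaller in DHT-treated cells. In each comparison 8 of 10 shares did not overlap between groups, with p = 0.1 in exact permutation tests and 0.125 after Benjamini-Hochberg adjustment over 30 tests. Levels of single genes did not overlap in 86.2% (PC3 against DHT), 76.8% (DHT against vehicle) and 85.5% (PC3 against vehicle) of all genes tested. These are levels, not shares, and leave out genes under the filter. The 8 of 10 lie near that background in each comparison, so this count is no result about the shares. By class, class III held 45.1 ± 2.51% of the total in PC3 cells, 44.3 ± 1.08% in DHT-treated and 46.5 ± 1.62% in vehicle-treated cells, and these ranges overlapped. Class I held 42.6 ± 2.02%, 46.9 ± 0.447% and 39.1 ± 1.18%, without overlap.

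Treatment of LNCaP cells with DHT was examined next, gene by gene. Of the 10 members, 7 passed the filter of more than 3 CPM in at least 3 libraries, and 3 (SLC2A3, SLC2A4 and SLC2A12) were called higher, none lower. A call required an adjusted p under 0.05 in edgeR's quasi-likelihood test and a fold change of at least 2, which 14% of all genes tested passed (6.54% higher and 7.49% lower). The median log2 fold change of the 7 was 0.83, beside -0.01 over all 11697 genes tested. SLC2A3 passed the filter only through the DHT-treated group, so it had to differ, and the count is a description. By the adjusted p alone, 5 of 7 passed, beside 74.9% of all genes tested.

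**Figure D2:**
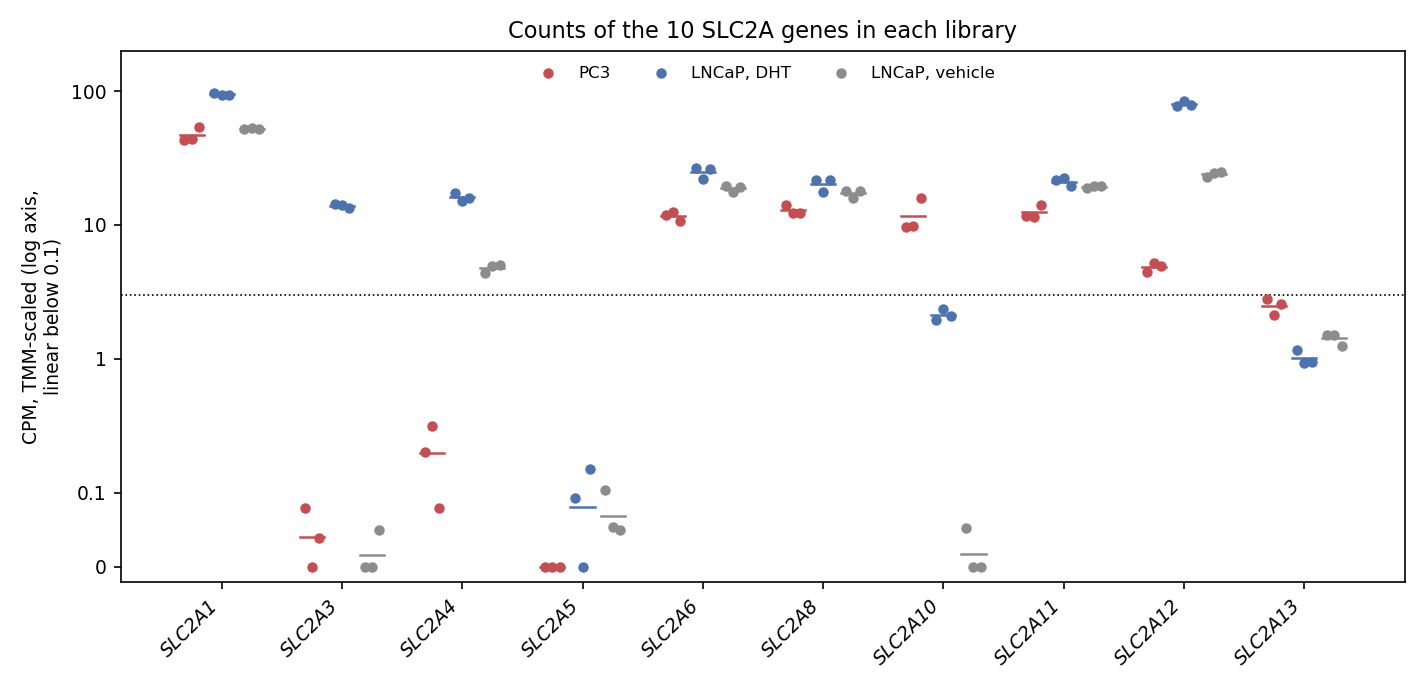
CPM of the 10 SLC2A genes in each library (points) and group means (lines), on a log axis that is linear below 0.1. The dotted line marks the filter of 3 CPM. DHT-treated LNCaP libraries lie highest for SLC2A1, SLC2A3, SLC2A4 and SLC2A12, PC3 libraries lie highest for SLC2A10 and SLC2A13, and SLC2A5 lies at or below 0.149 throughout.

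SLC2A12, the GLUT12 gene, had 77.6, 84.5 and 78.1 CPM in the 3 DHT-treated libraries and 22.9, 24.2 and 25.01 CPM in the vehicle-treated libraries. Every DHT-treated library lay above every vehicle-treated one. The log2 fold change was 1.71 (SE 0.06, adjusted p = 4.17e-11 from edgeR). On the opposite strand SLC2A12 overlaps TBPL1, and 50.5% of the 74-nt stretches of its transcript also occur in TBPL1 transcripts at the same place, so only the strand separates them. Counts on the opposite strand of SLC2A12 numbered 59 to 77 in DHT-treated and 62 to 75 in vehicle-treated libraries, beside 1572 to 1724 and 437 to 504 on its own strand. In the unstranded counts of the STAR files, its log2 fold change was 1.72. These counts are not the sum of both strands, so the effect of adding the opposite-strand reads was not tested.

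SLC2A4, the GLUT4 gene, had 375, 310 and 322 counts in DHT-treated and 83, 92 and 101 counts in vehicle-treated libraries. The groups did not overlap. The level rose from 4.75 ± 0.360 to 16.2 ± 1.08 CPM, a log2 fold change of 1.74 (SE 0.10, adjusted p = 5.11e-09 from edgeR). The muscle and fat markers MYH7, ADIPOQ and CKM had at most 3 counts in any LNCaP library.

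SLC2A3, the GLUT3 gene, had 308, 288 and 269 counts in DHT-treated libraries and 0, 0 and 1 in vehicle-treated libraries. The transcript was thus counted in every DHT-treated library and almost nowhere else, since PC3 libraries had 2, 0 and 1 counts. The ratio of summed counts, scaled to library size, was 807 (95% exact interval 145 to 31920.5, counting error only). SLC2A14, a close copy of SLC2A3 on the same chromosome, had 4, 9 and 7 counts in DHT-treated libraries and 0 in the other 6. Of the 74-nt stretches of SLC2A3, 13.7% also occur in SLC2A14, so the split between these genes is uncertain.

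SLC2A10, the GLUT10 gene, had 42, 48 and 42 counts in DHT-treated libraries and 1, 0 and 0 in vehicle-treated libraries. At 2.13 ± 0.209 CPM it stayed below the filter and was not tested. The ratio of summed counts was 123 (95% exact interval 21.7 to 4902, counting error only). Without the filter, edgeR gave an adjusted p of 1.21e-10. Because SLC2A10 was abundant in PC3 cells, transcripts typical of PC3 cells were read beside it. VIM had 272, 143 and 106 counts and CAV1 82, 18 and 9 counts in the DHT-treated libraries. In the vehicle-treated libraries VIM had 75, 23 and 32 counts and CAV1 29, 0 and 7. Every PC3 library had at least 26319 and 8947 counts of these genes. The part of other cells in the SLC2A10 counts was not tested.

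SLC2A1, the GLUT1 gene, had 97.5, 93.7 and 93.7 CPM in DHT-treated libraries and 51.6, 53.3 and 52.0 CPM in vehicle-treated libraries. Its groups did not overlap, but the log2 fold change of 0.83 (SE 0.04, adjusted p = 1.21e-09 from edgeR) was under the fold change of 2. Per kb of canonical transcript it had 15.5 ± 0.255 CPM with vehicle and 28.1 ± 0.642 CPM with DHT. This was the largest difference of a member on that scale, but not in CPM. Of its 74-nt stretches, 12.8% lie in a noncoding RNA on the opposite strand.

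The other tested members differed less. SLC2A6 had 26.6, 21.9 and 26.2 CPM in DHT-treated and 19.6, 17.5 and 19.2 CPM in vehicle-treated libraries, without overlap. Its log2 fold change was 0.38 (SE 0.08, adjusted p = 0.000907 from edgeR). SLC2A8 differed by 0.21 (SE 0.09) on the log2 scale with overlapping groups, and its adjusted p was 0.0505 from edgeR, or 0.0143 with the replicate number as a block. SLC2A11 had 21.5, 22.3 and 19.5 CPM against 18.8, 19.7 and 19.4 CPM, which overlapped (log2 fold change 0.10, SE 0.07, adjusted p = 0.231 from edgeR).

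The last 2 members were scarce. SLC2A13, the inositol carrier gene, had 25, 19 and 19 counts in DHT-treated and 29, 28 and 25 counts in vehicle-treated libraries. Scaled to library size these groups did not overlap, but the unfiltered log2 fold change of -0.49 had an adjusted p of 0.121 from edgeR. SLC2A5, the fructose carrier gene, had 2, 0 and 3 counts against 2, 1 and 1, so no difference was detectable at this depth.

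PC3 cells were then compared with DHT-treated LNCaP cells. Here 8 of 10 members passed the filter, of which 6 were called, 5 lower and 1 higher in PC3 cells, where 46% of all genes tested were called (22.1% lower and 24% higher). SLC2A3 and SLC2A4 passed only through LNCaP cells and SLC2A10 only through PC3 cells, so these 3 had to differ, and the count and median are descriptions. The median log2 fold change of the 8 was -1.07, beside 0.04 over 12541 genes. With vehicle-treated LNCaP cells as the other group, 7 members passed the filter and 3 were called (1 higher and 2 lower, beside 43.2% of 12686 genes, 22.2% higher and 21% lower), with a median of -0.65 beside 0.03. Of these 3, SLC2A4 passed only through vehicle-treated and SLC2A10 only through PC3 cells and had to differ, so this count too is no result beside the background. Both comparisons share the PC3 libraries. By the adjusted p alone, 8 of 8 tested members differed from DHT-treated and 6 of 7 from vehicle-treated cells, beside 84% and 83.4% of all genes tested.

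SLC2A12 had 4.47, 5.17 and 4.96 CPM in the PC3 libraries, below every LNCaP library. The log2 fold change of PC3 against DHT-treated cells was -4.05 (SE 0.09, adjusted p = 2.02e-08 from edgeR), and against vehicle-treated cells -2.33 (SE 0.10, adjusted p = 3.28e-07 from edgeR). Counts on the opposite strand were 40, 46 and 28 in PC3 libraries, beside 112, 115 and 126 on its own strand.

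SLC2A4 had 5, 7 and 2 counts in PC3 libraries, again below every LNCaP library. By summed counts, its level was 84.2 times as high in DHT-treated cells (95% exact interval 49.9 to 154) and 24.7 times as high in vehicle-treated cells (14.5 to 45.8) as in PC3 cells, with intervals for counting error only. Because it passed the filter through LNCaP cells alone, the test with no filter is given, with adjusted p of 5.01e-09 and 4.95e-07 from edgeR. For SLC2A3, the level in DHT-treated LNCaP cells was 337 times that in PC3 cells by summed counts (95% exact interval 115 to 1639, counting error only). Against vehicle-treated cells, with 3 counts in PC3 and 1 in vehicle-treated libraries, nothing could be told.

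SLC2A10 ran the other way. It had 241, 217 and 403 counts in PC3 libraries, or 9.61, 9.76 and 15.9 CPM, above every LNCaP library. Replicate 3 was the highest. Against DHT-treated cells the log2 fold change was 2.46 (SE 0.23, adjusted p = 3.07e-06 from edgeR) with no filter on low counts, and 2.17 (adjusted p = 5.87e-10 from edgeR) when PC3 replicate 3 was also left out. Against vehicle-treated cells the ratio of summed counts was 687 (95% exact interval 123 to 27158, counting error only). SLC2A13 was also higher in PC3 libraries, with 70, 47 and 65 counts and 2.49 ± 0.344 CPM, under the filter. Its unfiltered log2 fold change in edgeR was 1.30 (adjusted p of 0.000335) against DHT-treated and 0.80 (adjusted p of 0.00592) against vehicle-treated cells.

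SLC2A1 had 43.3, 43.7 and 53.8 CPM in PC3 libraries, all below the DHT-treated libraries and overlapping the vehicle-treated ones. The log2 fold change was -1.03 (SE 0.10, adjusted p = 1.93e-05 from edgeR) against DHT-treated and -0.18 (SE 0.10, adjusted p = 0.124 from edgeR) against vehicle-treated cells. In the latter comparison PC3 replicate 3 was the only PC3 library as high as the vehicle-treated ones. Leaving it out took the adjusted p under 0.05 and moved the log2 fold change little. Without it the log2 fold change was -0.21 (adjusted p = 0.00706 from edgeR), and without any other single library it was -0.29 to -0.03 (adjusted p of 0.0617 to 0.827 from edgeR). The difference from DHT-treated cells lay just past the fold change of 2. It was -0.85 without PC3 replicate 1 and also -0.85 without PC3 replicate 2. It was -0.99 where at least 10 counts in every library were required. The call was lost in all 3 cases. Without PC3 replicate 3 it was -1.03 and the call was kept. Leaving out a library also repeated the filter and the scaling, so these fits do not show the effect of a library alone.

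SLC2A6 had 11.8, 12.5 and 10.7 CPM in PC3 libraries, below all LNCaP libraries. Against DHT-treated cells it was called, with a log2 fold change of -1.11 (SE 0.11, adjusted p = 3.29e-05 from edgeR). That call was lost without PC3 replicate 1 (-0.997) or without PC3 replicate 3 (-0.94). Replicate 1 lay between the other PC3 libraries, and each of these fits repeated the filter and the scaling. The effects of library and of scaling cannot be told apart here. Against vehicle-treated cells the log2 fold change was -0.71 (adjusted p = 0.000214 from edgeR). SLC2A8 and SLC2A11 were lower in PC3 cells by less than the fold change of 2. Against DHT-treated cells their log2 fold changes were -0.67 and -0.77 (edgeR, adjusted p of 0.000909 and 0.000405). Against vehicle-treated cells they were -0.44 and -0.65 (edgeR, adjusted p of 0.00379 and 0.000729). Of the SLC2A11 stretches, 11.9% also lie in a readthrough transcript on the same strand. SLC2A5 had 0 counts in all 3 PC3 libraries, which allows up to 3 counts per library.

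**Figure D3:**
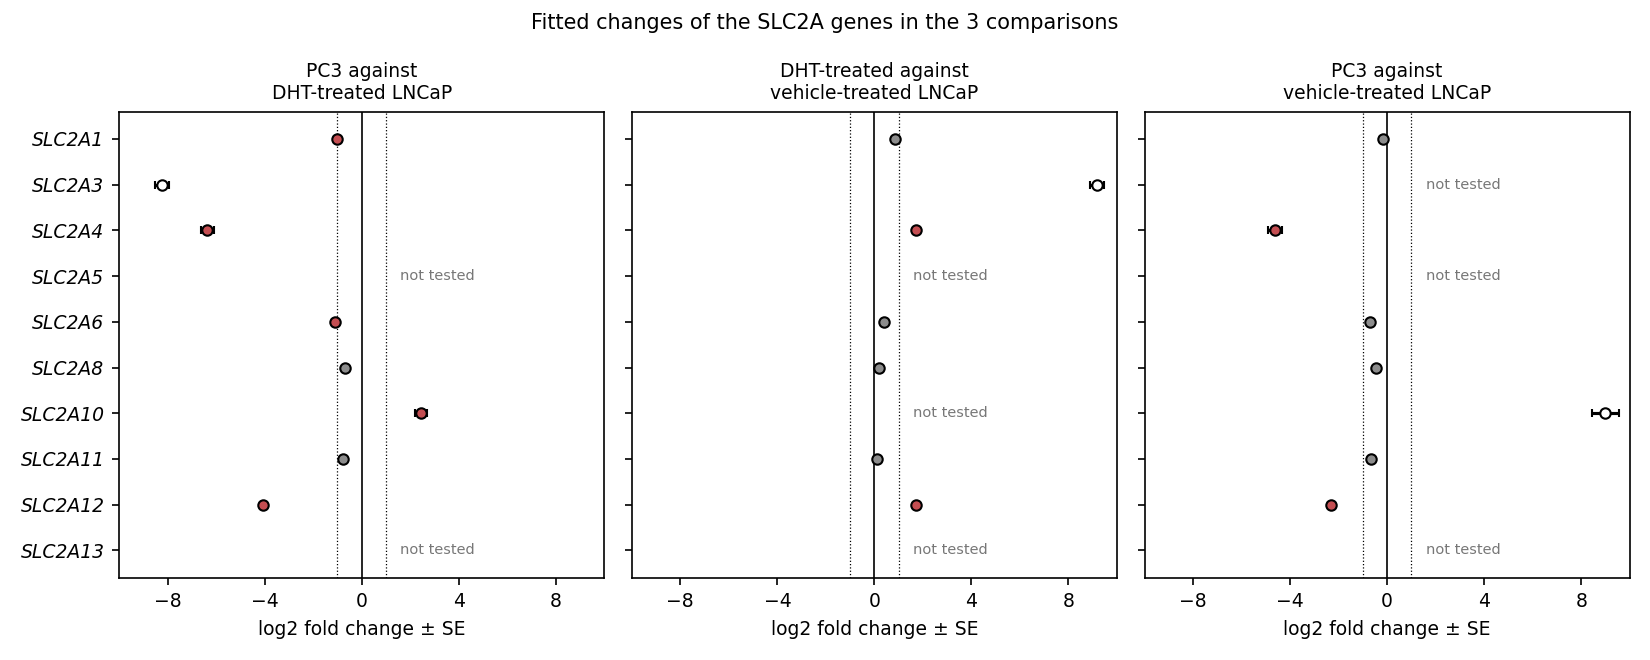
Fitted log2 fold change ± SE of each member in the 3 comparisons (6 libraries each). Red points were called, grey points were tested and not called, and open points have at most 3 counts in total in one group, so that their position depends on the fit. Dotted lines mark the fold change of 2. SLC2A12 lies at -4.05, 1.71 and -2.33 from left to right, and SLC2A1 at -1.03, 0.83 and -0.18.

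Other numbered members of the family were almost silent. SLC2A9, the urate carrier gene, had 0 to 9 counts per library, SLC2A7 had 1 count in total and SLC2A2 none. For the named class I genes SLC2A1 and SLC2A4, the genes with the most similar profile over the 9 libraries were looked up among 11262 genes, by the root mean square difference of centred log2(CPM + 0.5). For SLC2A1 these were ARFIP2 (0.0376), RREB1 (0.0595) and RNF185 (0.0653). ARFIP2 had 86.8 ± 7.72 CPM in PC3, 175 ± 7.33 in DHT-treated and 97.9 ± 2.68 in vehicle-treated cells. For SLC2A4 they were ENDOD1 (0.128), LOC100130872 (0.195) and ADAMTS1 (0.199). ENDOD1 had 27.5 ± 2.79, 705 ± 36.4 and 243 ± 8.76 CPM in the same order. SLC2A4 had 0.198 CPM in PC3 cells, below the 0.5 added, which shrinks its difference from LNCaP cells in this measure. The likeness is a description over 3 groups and has no test.

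Genes around the carriers were read from 5 lists. Their counts stand beside the shares of all genes tested, which were 6.54% called higher and 7.49% lower for DHT against vehicle, 24% and 22.1% for PC3 against DHT-treated cells, and 22.2% and 21% for PC3 against vehicle-treated cells. Among 14 other sugar carriers, 7 were tested. Against vehicle, DHT-treated cells had 3 called higher and 1 lower, with a median log2 fold change of 0.71. SLC45A3 (prostein), a prostate-restricted gene of the sucrose carrier family, rose from 77.7 ± 3.29 to 1298 ± 91.8 CPM with DHT (log2 fold change 4.03, adjusted p = 3.81e-14 from edgeR) and had 13.3 ± 1.33 CPM in PC3 cells. SLC5A3, which carries inositol with sodium, moved the opposite way. It fell from 42.8 ± 0.560 to 21.0 ± 1.61 CPM with DHT (log2 fold change -1.06, adjusted p = 1.27e-08 from edgeR) and had 147 ± 18.6 CPM in PC3 cells. SLC5A3 and SLC2A13 were thus both highest in PC3 libraries, but SLC5A11, also an inositol carrier gene, had 0 counts there, 1 to 3 in DHT-treated and 3 to 8 in vehicle-treated libraries. SLC45A1 rose with DHT by 2.09 on the log2 scale (adjusted p = 9.61e-08 from edgeR), and MFSD4A was lower in PC3 cells than in DHT-treated cells (log2 fold change -2.27, adjusted p = 1.30e-05 from edgeR). Between PC3 and DHT-treated cells 1 gene of the list was called higher and 4 lower, and between PC3 and vehicle-treated cells 2 and 2.

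All 26 genes of GLUT surface traffic were tested. DHT-treated cells had 5 called higher and 1 lower than vehicle-treated cells (median 0.24), and PC3 cells had 0 higher and 6 lower than DHT-treated cells (median -0.13), or 0 and 3 against vehicle-treated cells (median -0.03). Of the traffic genes higher in PC3 cells, 6 and 9 had an unadjusted p under 0.05 from edgeR in these comparisons, and DESeq2 called 0 in both. The 6 of 26 lower than in DHT-treated cells are close to the 22.1% of all genes, so that count is no result about the traffic genes. TBC1D1, a Rab GTPase-activating protein that restrains GLUT4 vesicles, rose with DHT from 59.8 ± 1.80 to 182 ± 8.07 CPM (adjusted p = 1.65e-11 from edgeR). RAB4A, a GTPase of fast endosomal recycling, rose from 66.1 ± 2.09 to 193 ± 3.97 CPM (adjusted p = 6.36e-12 from edgeR). TXNIP, an arrestin that takes GLUT1 from the surface, fell from 249 ± 38.4 to 83.8 ± 13.3 CPM (log2 fold change -1.60, adjusted p = 3.79e-08 from edgeR). The related ARRDC4 had 6.13 ± 1.13 CPM in PC3 and 33.8 ± 2.43 CPM in vehicle-treated cells (adjusted p = 1.41e-06 from edgeR). RAB11A, a GTPase of slow recycling, was lower in PC3 cells (97.8 ± 5.58 CPM) than in DHT-treated cells (409 ± 20.3 CPM, adjusted p = 9.18e-08 from edgeR).

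Among the 21 genes of the first steps on imported sugar and inositol, 15 were tested. With DHT, 3 were called higher and 1 lower (median 0.23). SORD, which oxidises sorbitol to fructose, rose from 235 ± 5.16 to 1449 ± 11.5 CPM (log2 fold change 2.59, adjusted p = 1.84e-14 from edgeR), and PC3 cells had 36.1 ± 9.18 CPM. HK1, a hexokinase that traps glucose as its phosphate, rose from 132 ± 6.13 to 343 ± 19.9 CPM (adjusted p = 2.03e-11 from edgeR). KHK, the fructose kinase, fell from 17.6 ± 2.22 to 7.87 ± 0.411 CPM (adjusted p = 2.47e-07 from edgeR). In PC3 cells 0 genes were called higher and 5 lower than in DHT-treated cells (median -0.31), and 2 and 3 against vehicle-treated cells (median -0.60). Of the genes higher in PC3 than in DHT-treated cells, 2 had an unadjusted p under 0.05 from edgeR and 0 were called by DESeq2. PGM2, a phosphopentomutase, had 25.6 ± 7.64 CPM in PC3 and 219 ± 6.54 CPM in DHT-treated cells (adjusted p = 2.00e-06 from edgeR).

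**Figure D4:**
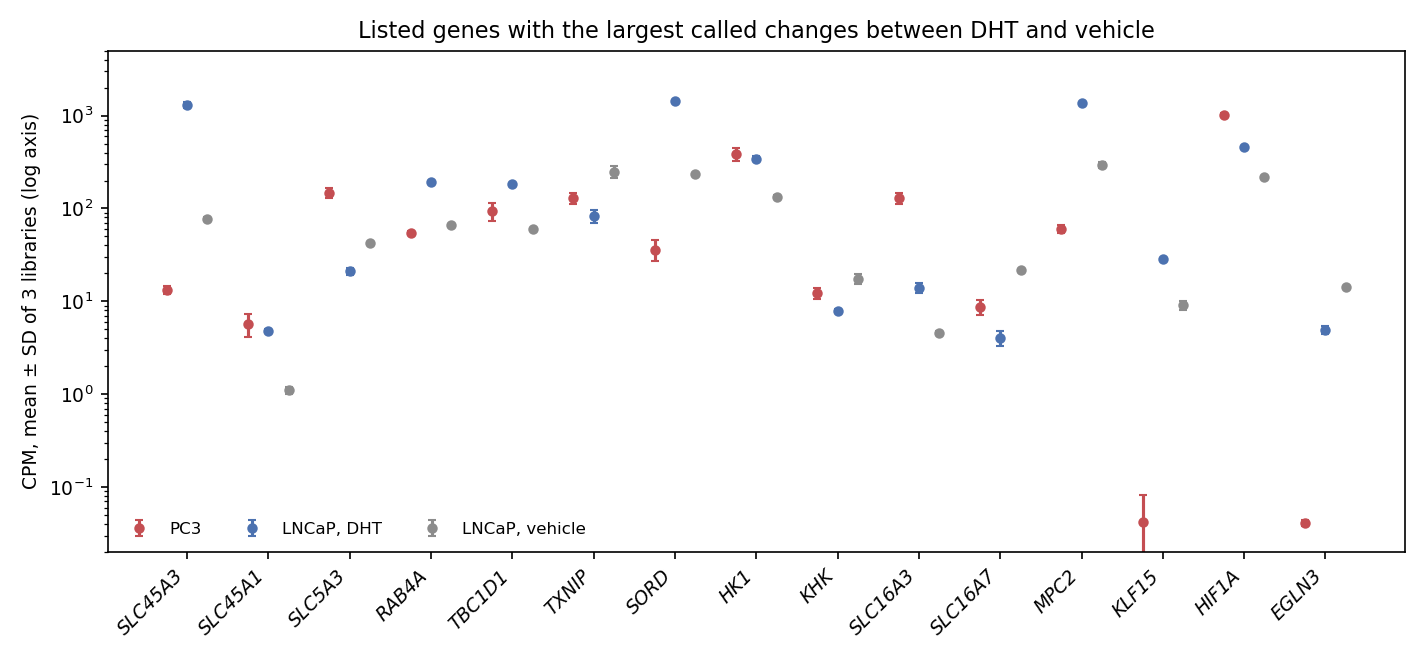
CPM (mean ± SD of 3 libraries, log axis) of the genes named by rule from the 5 lists for DHT-treated against vehicle-treated LNCaP cells. SLC45A3, SORD and MPC2 lie at 1298, 1449 and 1362 CPM in DHT-treated cells, SLC16A3 is highest in PC3 cells (129 CPM), and KLF15 and EGLN3 are near 0 in PC3 cells.

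Of the 8 lactate and pyruvate carrier genes, 7 were tested, and 2 were called higher and 1 lower with DHT (median -0.02). MPC2, a subunit of the mitochondrial pyruvate carrier, rose from 294 ± 20.9 to 1362 ± 17.0 CPM (adjusted p = 3.31e-13 from edgeR) and had 59.9 ± 5.85 CPM in PC3 cells. SLC16A3 encodes the lactate exporter MCT4. It rose from 4.57 ± 0.192 to 13.9 ± 1.74 CPM with DHT (adjusted p = 7.17e-08 from edgeR) and had 129 ± 17.0 CPM in PC3 cells. SLC16A7 (MCT2) fell from 21.5 ± 0.966 to 4.07 ± 0.756 CPM with DHT (adjusted p = 7.10e-10 from edgeR). EMB, a chaperone of these carriers, was lower in PC3 cells than in vehicle-treated cells (10.4 ± 0.934 and 91.4 ± 1.07 CPM, adjusted p = 3.09e-08 from edgeR). PC3 cells had 2 higher and 3 lower than DHT-treated cells (median -0.62), and 1 and 3 against vehicle-treated cells (median -0.73).

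The last list held 20 genes known to control GLUT genes. With DHT 2 of 17 tested were called higher and 1 lower (median -0.14), and PC3 cells had 5 higher and 4 lower against either LNCaP group (medians 0.18 and 0.21). KLF15, a factor known to raise SLC2A4, rose from 9.10 ± 0.961 to 28.3 ± 0.812 CPM with DHT (log2 fold change 1.61, adjusted p = 2.30e-09 from edgeR) and had 0.0416 CPM in PC3 cells. HIF1A, the hypoxia-inducible factor known to act on SLC2A1, rose from 218 ± 6.12 to 459 ± 9.58 CPM with DHT (log2 fold change 1.05, adjusted p = 6.62e-11 from edgeR) and had 1016 ± 47.6 CPM in PC3 cells. EGLN3, a prolyl hydroxylase that marks HIF proteins for decay, fell with DHT from 14.1 ± 0.0621 to 4.94 ± 0.547 CPM (adjusted p = 1.95e-08 from edgeR). PPARG and MEF2C were higher in PC3 cells. PPARG, the fat cell regulator, had 283 ± 28.1 CPM there and 6.72 ± 0.405 CPM in DHT-treated cells (adjusted p = 1.51e-08 from edgeR). MEF2C, a muscle factor, had 45.6 ± 13.9 CPM in PC3 cells and 0.140 CPM in DHT-treated cells.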

How the data were processed

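RNA of 9 libraries was analysed, 3 per group, grouped by their labels. The authors trimmed reads with cutadapt 4.1, aligned them to hg38 with STAR 2.7.7a and removed duplicates with UMI-tools 1.1.2, according to the submitters' processing notes. The supplementary methods of the study name other versions of cutadapt and STAR. The authors deposited unnormalised counts, as whole reads for each gene and library. The 253944 table values were compared with the STAR files, and all were identical to the forward-strand column. All library columns were used (0 left out). Reads on the other strand made up 2.33 to 3.06% of those on genes, and 20.3 to 25.4% of reads were not counted on a gene.

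The 10 members and the gene lists were chosen with earlier results of these data known. Genes over 3 CPM in at least 3 of the 6 libraries of a comparison were tested with edgeR 4.0.16 (R 4.3.3) with TMM factors and its quasi-likelihood test, with Benjamini-Hochberg adjustment over all genes tested. The batch term of the study is not named in the labels and was not used. The scripts were tested on simulated data. Printed CPM were scaled with TMM factors from the 9 libraries together, and levels per length use the canonical transcript of GENCODE 44. DHT-treated, vehicle-treated and PC3 libraries each enter 2 comparisons. Shares and family totals were compared with exact two-sided permutation tests. Genes named from a list are up to 2 called with the largest rise and up to 2 with the largest fall in a comparison; for SLC2A1 and SLC2A4 the 3 most similar profiles are named. For the first steps on imported sugar, 1 gene of the list is not reported here and is left out of its counts. Intervals and limits for a count of 0 (taken as 3 counts) cover counting error only.

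To test whether replicate numbers pair the LNCaP libraries, deviations from group means were correlated over 11697 genes. DHT and vehicle libraries sharing a number gave 0.19, 0.22 and 0.20, and other pairs gave -0.22 to 0.02. Deviations were taken from means of 3 libraries, so the other pairs are not independent of those sharing a number. The numbers were taken as pairs on these counts alone, and only in the replicate block. The main fits did not use them. Alternatives were DESeq2 1.42.0 (size factors and Wald test), the likelihood ratio test, the replicate block, other filters, adjusted p alone, unstranded counts, all 9 libraries in one fit, other lengths, all SLC2A symbols and leaving out each library. A fit with no filter and without PC3 replicate 3 was added after seeing the data.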

Additional observations from a re-analysis of the deposited data

How the results depend on the processing

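No log2 fold change of a member changed direction under any alternative, and 297 of 309 kept their side of the call. The calls of SLC2A3, SLC2A4, SLC2A10 and SLC2A12 were kept wherever they were tested. Under the filter of 3 CPM, SLC2A3, SLC2A10 and, against PC3 cells, SLC2A4 passed only through the group where they were high. Their kept calls under that filter had to follow and are no support. When 1 library was left out, a member above the filter in 1 group alone was no longer tested, so the members called were 3 to 4 for PC3 against DHT-treated, 2 to 3 for DHT-treated against vehicle-treated and 2 throughout for PC3 against vehicle-treated LNCaP cells. In the first of these comparisons SLC2A1 and SLC2A6 also fell under the fold change of 2 without PC3 replicate 1 (3 called). So did SLC2A1 without replicate 2 and SLC2A6 without replicate 3 (4 called each). Each of these fits repeated the filter and the scaling. SLC2A1 lay at -1.10 to -1.13 whichever DHT-treated library was left out, beside -1.03 with all libraries. These fits thus do not show the effect of a library alone. With 1 library left out, genes called ranged from 4633 to 5006, 1404 to 1551 and 4361 to 4593. Without the filter on low counts 9147, 2941 and 8713 genes were called, and by adjusted p alone 10530, 8763 and 10577 (members 8, 5 and 6). At least 10 counts in every library left 1 member called for PC3 against vehicle-treated cells, since SLC2A4 and SLC2A10 were no longer tested. Over all annotated exons the family totals were 18.7 (PC3), 49.8 (DHT) and 25.4 (vehicle) CPM per kb and the SLC2A1 shares 37.9, 28.8 and 31.1%. As a share of counts with no length, SLC2A1 held 45.4, 34.6 and 37.9%. With unstranded counts, the total of DHT-treated cells was 75.7 CPM per kb and its SLC2A1 share 37.9%. Leaving out 1 library gave totals of 31.2 to 33.5 (PC3), 76.7 to 78.8 (DHT) and 42.9 to 43.5 (vehicle), and SLC2A1 shares of 41.2 to 43.2%, 35.9 to 36.2% and 35.2 to 36.1%. Between TMM and DESeq2 scaling the median of all genes moved by at most 0.009 on the log2 scale.

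With the replicate number as a block, the members called were 6, 3 and 3, and genes called 5756, 1638 and 5495, and no member's call changed. For PC3 against LNCaP cells the pairing was not seen, with same-number correlations of -0.09 to 0.03 and others of -0.08 to 0.09. Depth limits SLC2A5 (0 to 3 counts per library) and the size of the SLC2A3 and SLC2A10 ratios against vehicle-treated cells, which rest on 1 count each.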

Other observations

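Reads on the strand opposite to SLC2A12 were a larger part of all reads on that gene where the gene itself was low. They made up 26.3%, 28.6% and 18.2% in the PC3 libraries, 12.4%, 14.2% and 10.95% in vehicle-treated and 4.38%, 3.58% and 3.62% in DHT-treated LNCaP libraries. These opposite-strand reads came to 1.10 to 2.07 CPM in PC3 and 2.93 to 3.56 CPM in DHT-treated libraries, and the vehicle-treated libraries overlapped the latter. SLC2A12 shares this place with TBPL1, which runs the other way, and the source of these reads was not tested. SLC2A1-AS1, the antisense gene of SLC2A1, had 13 to 18 counts in PC3, 27 to 31 in DHT-treated and 16 to 21 in vehicle-treated libraries.

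SLC2A4RG, named as a regulator of SLC2A4, is no family member. It had 132, 140 and 116 CPM in PC3, 101, 104 and 106 CPM in DHT-treated and 122, 111 and 121 CPM in vehicle-treated libraries. Its lowest levels thus lay in the DHT-treated libraries, where SLC2A4 was highest. A summary of how evenly the family total was spread, the inverse of the sum of squared shares, was computed per canonical length only. It was 3.87 ± 0.133 in PC3, 4.77 ± 0.0636 in DHT-treated and 4.44 ± 0.0629 in vehicle-treated cells, without overlap between groups (n = 3 each, no test). The SLC2A12 share in DHT-treated cells was 18.5% per canonical length and 29.2% of counts with no length. The order of DHT-treated and vehicle-treated cells may therefore not hold on other scales.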
